A study of Mus musculus with 6 samples.

Results

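The platelet-derived growth factor (PDGF) genes *Pdgfa*, *Pdgfb*, *Pdgfc* and *Pdgfd*, which encode the ligands, and *Pdgfra* and *Pdgfrb*, which encode the receptors, were examined in bulk RNA-seq of the mouse secondary palate. These 6 genes were chosen by family and matched by symbol among the 56691 genes of the deposited tables. The tissue was the anterior or the posterior end of the palatal shelves of C57BL/6J mouse embryos at E14.0, when the shelves elevate above the tongue, with 3 libraries per region. The embryos carried no allele or treatment that the labels name. The study calls the samples biologically independent, and the number of embryos per library is not given in the sources used here.

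PDGFs are secreted as dimers that bring receptor tyrosine kinases together at the cell surface. PDGF-A and PDGF-C signal through the alpha receptor, PDGF-B binds the alpha and the beta receptor, and PDGF-D acts chiefly through the beta receptor. PDGF-C and PDGF-D are released as latent proteins and become active once proteases remove their CUB domains. In the embryonic face, epithelium is a known source of PDGF-A and the neural crest-derived mesenchyme carries the alpha receptor, whereas endothelium makes PDGF-B and pericytes carry the beta receptor. Mice that lack *Pdgfra* or *Pdgfc* develop cleft palate.

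The libraries held between 11378736 and 15172733 reverse-stranded counts. *Shox2*, known from the anterior palate, lay between 354 and 417 CPM (counts scaled to a common library size) in the anterior and between 5.02 and 16.9 CPM in the posterior libraries, and *Meox2*, known from the posterior palate, between 6.83 and 8.74 and between 149 and 243 CPM, so that each library matched its label. In posterior replicates 1, 2 and 3, *Shox2* had 5.02, 16.9 and 13.2 CPM and *Meox2* 243, 149 and 184 CPM. Posterior replicates 2 and 3 stood apart from the other 4 libraries. Their share of multimapping reads was 6.12% and 5.94%, while it lay from 8.45% to 8.77% elsewhere, and their share of mitochondrial counts was 0.973% and 1.14%, while it lay from 2.70% to 2.97% elsewhere. Values are therefore also given from a fit with a term for these 2 groups of libraries (the library-group term), in which the regional difference rests on posterior replicate 1 alone against the anterior libraries. That library is assumed to vary like the other groups, so an adjusted p-value from this fit has no replicate behind its posterior side.

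*Pdgfra* was the member that differed most between the regions in the fit of region alone, and *Pdgfrb* did not follow it. *Pdgfra* was 2.09-fold higher in the posterior palate, *Pdgfc* 1.35-fold and *Pdgfd* 1.74-fold, *Pdgfa* stood at 0.632 of its anterior level, and *Pdgfb* and *Pdgfrb* were at 0.984 and 0.944 of theirs. Of the 6 members, 1 (*Pdgfra*) was called at an adjusted p-value below 0.05 by edgeR's quasi-likelihood test, in which 7.46% of the 15673 genes tested were called. Of all genes tested, 4.87% were called higher posteriorly and 2.59% higher anteriorly. For 3 members the regions held no overlapping libraries, *Pdgfa*, *Pdgfc* and *Pdgfra*, against 28.0% of all genes tested. The median log2 fold change of all genes tested was -0.0040.

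**Figure D1:**
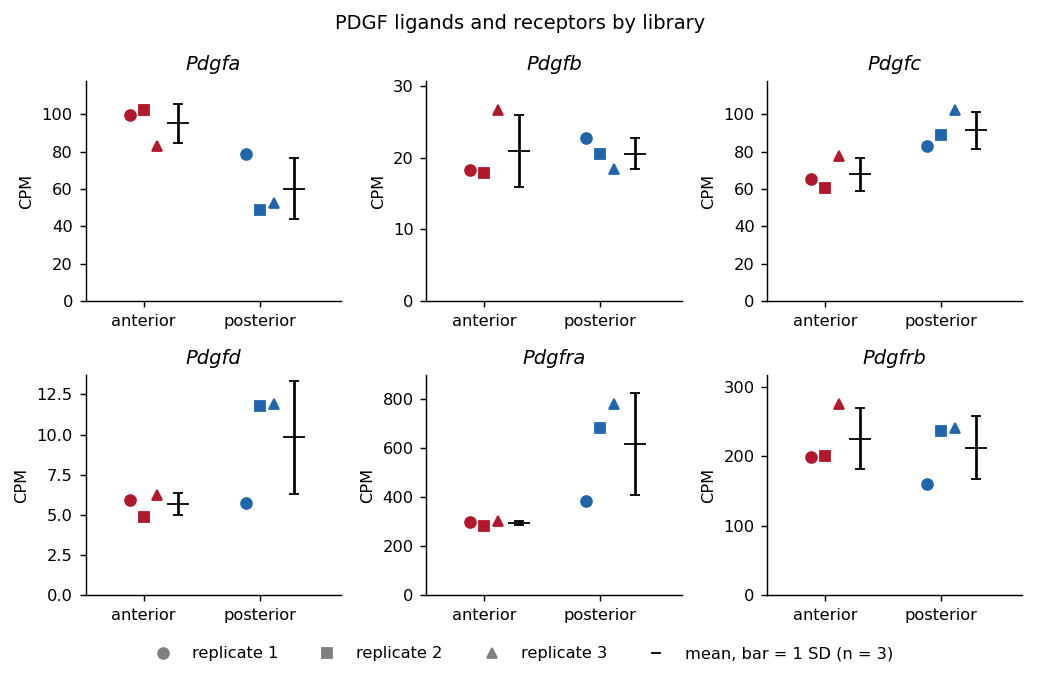
TMM-normalized CPM (y axis, starting at 0 in each panel) of each member in the 3 anterior (red) and 3 posterior (blue) libraries, with symbols for the replicates and black bars for the mean and 1 SD. Posterior replicates 2 and 3 lie far from posterior replicate 1 for *Pdgfra*, *Pdgfd* and *Pdgfa*, while *Pdgfc* is at 82.9 CPM or more in every posterior library and at 77.6 CPM or less in every anterior one.

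The sequence just upstream of the annotated start is shown for *Pdgfra* and for *Pdgfc*, a ligand of its receptor, since these were the members whose posterior libraries all lay above the anterior ones. The sequences are those of RefSeq in GRCm38.p6, on the plus strand and 250 bases long, at chr5:75152001-75152250 for *Pdgfra* and chr3:81036166-81036415 for *Pdgfc*. Capitals mark the E-box CANNTG, the site of basic helix-loop-helix factors, searched on both strands.
Pdgfra: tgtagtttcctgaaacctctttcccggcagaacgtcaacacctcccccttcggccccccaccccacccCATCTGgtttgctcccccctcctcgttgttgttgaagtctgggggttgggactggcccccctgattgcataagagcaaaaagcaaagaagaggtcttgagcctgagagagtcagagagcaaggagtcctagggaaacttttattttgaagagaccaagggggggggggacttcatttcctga
Pdgfc: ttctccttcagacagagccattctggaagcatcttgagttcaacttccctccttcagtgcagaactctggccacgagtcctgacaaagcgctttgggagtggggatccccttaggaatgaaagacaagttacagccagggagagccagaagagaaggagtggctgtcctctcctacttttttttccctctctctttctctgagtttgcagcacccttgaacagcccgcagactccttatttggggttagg

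The *Pdgfra* window held 1 E-box and the *Pdgfc* window 0, and 66.2% of the 32851 RefSeq promoters of this length held at least 1. The GC box GGGCGG (32.7% of promoters), the CCAAT box (33.8%) and the TATA box TATAAA (12.4%), searched on both strands, were in neither window. GC content was 54.4% for *Pdgfra* and 50.8% for *Pdgfc*, near the median of 52.4% over all promoters. The window at the more upstream of the *Pdgfa* starts in the table had a GC content of 72.4% and 2 GC boxes. Of the 6 members, 4 were in the promoter table.

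*Pdgfra* (ENSMUSG00000029231.16), which encodes the alpha receptor, lies on chromosome 5 of GRCm38 from 75152292 to 75198215 on the plus strand. It had 297, 282.7 and 301 CPM in anterior replicates 1, 2 and 3, and 382, 681 and 779 CPM in the posterior ones. The anterior libraries were thus nearly level, and each posterior library was above all of them, replicate 1 by the least. The anterior mean was 294 ± 9.77 CPM and the posterior mean 614 ± 207 CPM (SD, n = 3 each). The log2 fold change was 1.06 (standard error, SE, 0.24, edgeR adjusted p = 0.0406). With the library-group term it was 0.38 (SE 0.090, adjusted p = 0.0437), with posterior replicate 1 as the only posterior library behind it, so that the size of the difference depended on posterior replicates 2 and 3.

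The adjusted p-value for *Pdgfra* lay close to the threshold. Leaving out anterior replicate 1, 2 or 3 or posterior replicate 2 or 3 ended the call (adjusted p = 0.152, 0.170, 0.138, 0.146 and 0.112 from edgeR, with log2 fold changes from 0.86 to 1.08). Leaving out posterior replicate 1 gave 1.32 (adjusted p = 1.40e-05), in a fit that called 46.4% of all genes tested, so that a call without this library says little about a single gene. Across the libraries long transcripts deviated together, and at the length of *Pdgfra* the trend was 0.23 and 0.26 on the log2 scale in posterior replicates 2 and 3, against -0.15 to -0.095 in the other libraries. With this trend taken out, the log2 fold change was 0.80 (adjusted p = 0.0177).

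**Figure D2:**
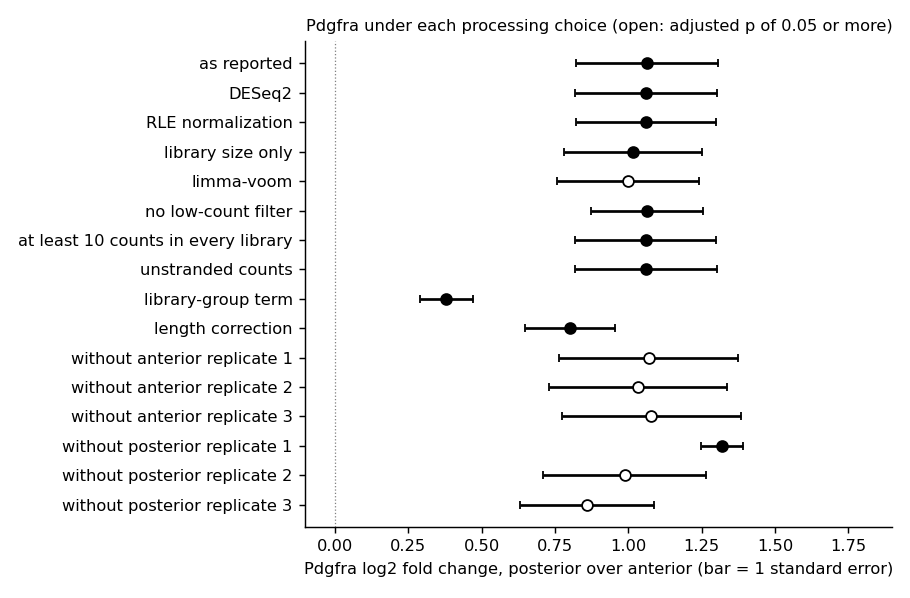
Log2 fold change of *Pdgfra*, posterior over anterior palate (x axis), with bars of 1 standard error, under the processing choices other than the replicate block (y axis), filled where the adjusted p-value is below 0.05. All values are above 0, from 0.38 with the library-group term to 1.32 without posterior replicate 1, and 6 of the 15 alternatives shown are open points.

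*Pdgfrb* (ENSMUSG00000024620.12), which encodes the beta receptor, lies on chromosome 18 from 61045150 to 61085061. It had 199, 201 and 276 CPM in the anterior and 160, 237 and 241 CPM in the posterior replicates. Anterior replicate 3 was the highest and posterior replicate 1 the lowest library, and the regions overlapped. The log2 fold change was -0.083 (SE 0.20, edgeR adjusted p = 0.804). It was 0.085 without anterior replicate 3 and 0.090 without posterior replicate 1, so its direction turned on single libraries, and it was -0.49 with the library-group term (adjusted p = 0.164).

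Comparing the receptors within a library removes the library size. Per kb of exon, the ratio of *Pdgfra* to *Pdgfrb* was 0.816, 0.768 and 0.596 in anterior replicates 1, 2 and 3. In the posterior replicates it was 1.31, 1.57 and 1.77. Every posterior library, including replicate 1, therefore had more *Pdgfra* relative to *Pdgfrb* than any anterior library. The log2 ratio went from -0.47 ± 0.24 (SD, n = 3) to 0.62 ± 0.22 (SD, n = 3), a 2.13-fold shift (two-sided exact permutation test, p = 0.1, the smallest that 3 libraries against 3 allow). The shift was 0.93 on the log2 scale with the length trend removed, against 1.09 without that correction. Whether the ratio itself lies below or above 1 in the anterior palate depends on the length used, since it was 0.720 with the merged exons of each gene and 1.05 with its longest transcript.

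**Figure D3:**
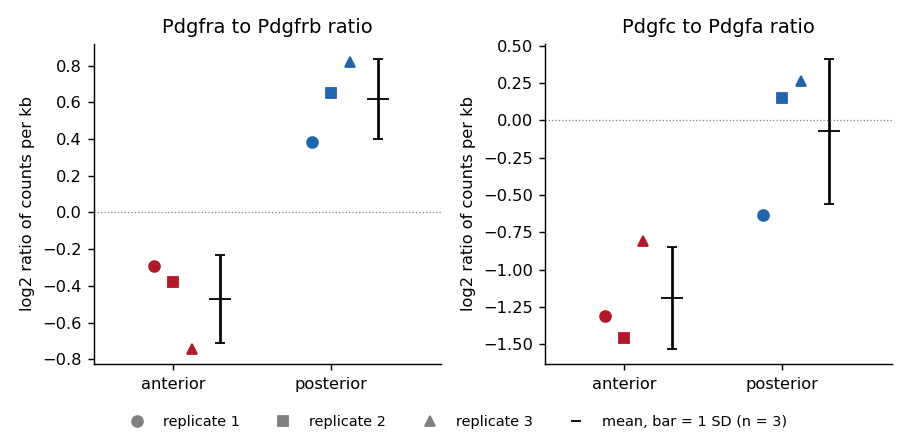
Log2 ratio of counts per kb (y axis) of *Pdgfra* to *Pdgfrb* (left) and of *Pdgfc* to *Pdgfa* (right) in each library, with the mean and 1 SD in black and a dotted line at equal levels. The highest anterior receptor ratio (-0.29) is below the lowest posterior one (0.38). The regions do not overlap in the ligand ratio either, which follows from *Pdgfa* and *Pdgfc* each not overlapping, in opposite directions.

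*Pdgfa* (ENSMUSG00000025856.16), a ligand of the alpha receptor, lies on chromosome 5 from 138976014 to 138997370 on the minus strand. It had 99.5, 102 and 83.1 CPM in the anterior and 78.8, 48.9 and 52.4 CPM in the posterior replicates. No posterior library reached the lowest anterior one, from which posterior replicate 1 was the least distant. The log2 fold change of -0.66 (SE 0.19) did not pass the threshold (edgeR adjusted p = 0.085), and was -0.27 (adjusted p = 0.27) with the library-group term. Without posterior replicate 1, where 46.4% of all genes were called, it was -0.90 (adjusted p = 0.000285).

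*Pdgfc* (ENSMUSG00000028019.10), the other ligand that signals through the alpha receptor, lies on chromosome 3 from 81036416 to 81214040. It had 65.6, 60.6 and 77.6 CPM in the anterior and 82.9, 88.7 and 102 CPM in the posterior replicates. Here posterior replicate 1 was close to the other posterior libraries, and the gap between the regions was small. The log2 fold change was 0.43 (SE 0.13, edgeR adjusted p = 0.095) and 0.29 (adjusted p = 0.305) with the library-group term. In the fit without posterior replicate 1, with its 46.4% of genes called, it was 0.50 (adjusted p = 0.00754).

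*Pdgfa* and *Pdgfc* thus differed in opposite directions, and their balance was compared within each library. The ratio of *Pdgfc* to *Pdgfa* per kb was 0.404, 0.363 and 0.572 in the anterior and 0.646, 1.11 and 1.198 in the posterior replicates. *Pdgfa* exceeded *Pdgfc* in all 3 anterior libraries and in posterior replicate 1. The regions did not overlap in this ratio, which had to follow, since neither gene overlapped and their directions were opposite. The exact permutation p-value of the ratio was fixed in the same way and adds nothing to the values of the 2 genes. The log2 ratio went from -1.19 ± 0.34 to -0.073 ± 0.49 (SD, n = 3 each), a 2.17-fold shift (two-sided exact permutation test, p = 0.1, the smallest possible).

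*Pdgfd* (ENSMUSG00000032006.16; chromosome 9, 6168584 to 6378850), a ligand of the beta receptor, was the scarcest member. It had 5.92, 4.87 and 6.23 CPM in the anterior and 5.76, 11.8 and 11.9 CPM in the posterior replicates, from 67 to 174 counts per library. Posterior replicate 1 lay within the anterior range, whereas replicates 2 and 3 lay well above it. The log2 fold change of 0.79 (SE 0.29, edgeR adjusted p = 0.149) was 0.026 with the library-group term and 1.07 (adjusted p = 0.00121) without posterior replicate 1, where 46.4% of all genes were called.

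*Pdgfb* (ENSMUSG00000000489.8; chromosome 15, 79995874 to 80014977), which binds both receptors, had 18.2, 17.9 and 26.6 CPM in the anterior and 22.8, 20.4 and 18.4 CPM in the posterior replicates. The regions overlapped, and anterior replicate 3 was the highest library. The log2 fold change was -0.024 (SE 0.18, edgeR adjusted p = 0.944), and 0.18 without anterior replicate 3 or 0.053 without posterior replicate 3.

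For the comparison of levels between genes, CPM were divided by the length of the merged exons in kb. In the anterior palate the order was *Pdgfrb* (41.2 ± 8.03 CPM per kb), *Pdgfa* (30.5 ± 3.32), *Pdgfra* (29.3 ± 0.974), *Pdgfc* (13.4 ± 1.72), *Pdgfb* (5.03 ± 1.19) and *Pdgfd* (1.80 ± 0.226; SD, n = 3 each). *Pdgfa* was above *Pdgfra* in 2 of the 3 libraries, so these neighbours did not differ beyond their spread, and the other neighbours kept their order in all 3 libraries. In the posterior palate the order was *Pdgfra* (61.3 ± 20.6), *Pdgfrb* (38.8 ± 8.34), *Pdgfa* (19.2 ± 5.23), *Pdgfc* (17.9 ± 1.96), *Pdgfb* (4.94 ± 0.519) and *Pdgfd* (3.12 ± 1.11). There *Pdgfa* was above *Pdgfc* in 1 of the 3 libraries, and the remaining neighbours kept their order in all 3. With the longest transcript of each gene the top 3 in the anterior palate were *Pdgfa*, *Pdgfra* and *Pdgfrb*, at 46.1, 43.0 and 41.6 CPM per kb. The posterior order was the same with that length, but *Pdgfrb* was then above *Pdgfa* in 2 of the 3 libraries.

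**Figure D4:**
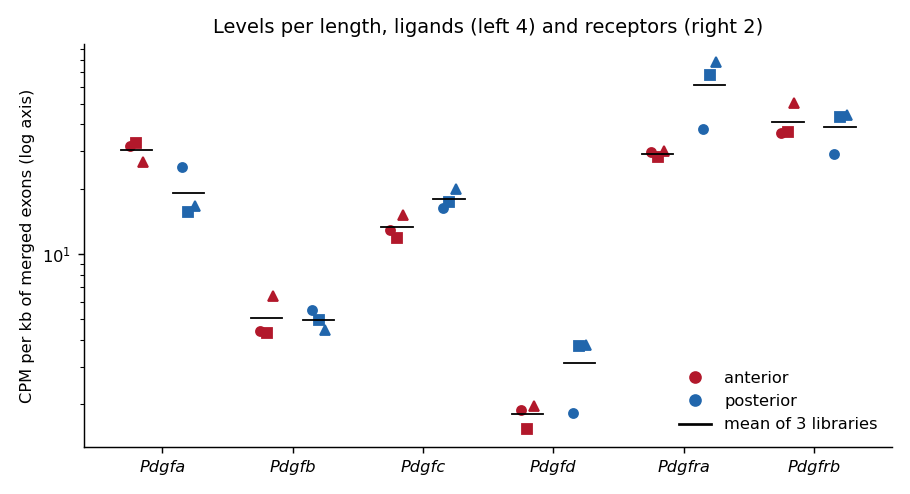
CPM per kb of merged exons (y axis, log scale) of the ligands and receptors in the anterior (red) and posterior (blue) libraries, with symbols as in the plot of members by library and a black line at the mean of 3. The receptors, *Pdgfa* and *Pdgfc* lie at 11.9 CPM per kb or more in every library, and *Pdgfb* and *Pdgfd* at 6.40 or less.

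*Pdgfa* and *Pdgfc* together made up most of the ligand transcripts. On the per-length scale, *Pdgfa* supplied 60.1% ± 6.28 of the summed ligand level anteriorly and 42.2% ± 8.26 posteriorly, and *Pdgfc* 26.4% ± 3.52 and 39.9% ± 5.83 (SD, n = 3 each, two-sided exact permutation test, p = 0.1 for each, the smallest possible). The share of *Pdgfb* was 9.94% ± 2.42 and 10.9% ± 0.999 (exact permutation p = 0.6) and that of *Pdgfd* 3.55% ± 0.449 and 7.02% ± 2.85 (exact permutation p = 0.2). The summed ligand level was 51.0, 50.6 and 50.3 CPM per kb in the anterior and 48.8, 41.8 and 45.1 in the posterior replicates, with every posterior library below the anterior ones (exact permutation p = 0.1, two-sided, the smallest possible). The summed receptor level was 65.9, 64.9 and 80.5 in the anterior and 67.3, 111 and 122 CPM per kb in the posterior replicates (exact permutation p = 0.2). Receptors exceeded ligands 1.29-, 1.28- and 1.6-fold in the anterior libraries and 1.38-, 2.66- and 2.70-fold in the posterior ones, where replicate 1 was within the anterior range.

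The genes around the receptors were described by role. Of 42 genes for ligand processing, receptor partners, signal relay and signal attenuation, all of which were tested, 2 were called, *Plau* and *Ptprj*, both higher in the posterior palate (4.76%, against 7.46% of all genes). With the library-group term 3 others were called, *Pcsk6*, *Nrp1* and *Fyn*, all higher in the anterior palate (7.14%, against 7.61% of all genes), and *Plau* and *Ptprj* were not, so that both the direction and the genes depended on that term. The median log2 fold change over the 42 genes was 0.0058. The regions did not overlap for 12 of them (28.6%, against 28.0% of all genes). The count of 2 became 0 without any single anterior replicate or without posterior replicate 2, 1 without posterior replicate 3, and 23 without posterior replicate 1 (54.8%, against 46.4% of all genes in that fit).

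Among the 6 genes that process the ligands, *Plau* rose in the fit of region alone. It encodes urokinase, a protease that activates latent PDGF-D, and had 17.6, 17.6 and 15.1 CPM in the anterior and 24.9, 25.4 and 27.9 CPM in the posterior replicates. Its log2 fold change was 0.64 (SE 0.12, edgeR adjusted p = 0.0188), and posterior replicate 1 was level with the other posterior libraries. With the library-group term it was 0.57 (adjusted p = 0.0512). *Pcsk6*, a proprotein convertase named here after its values were seen, had the largest difference of the list, with 161.5, 144 and 107 CPM in the anterior and 53.9, 65.0 and 103 CPM in the posterior replicates. Its log2 fold change was -0.89 (edgeR adjusted p = 0.0848), and -1.35 with the library-group term (adjusted p = 0.0312).

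None of the 3 receptor partners was called by edgeR in the fit of region alone, although 1 had an unadjusted p below 0.05 (25.2% of all genes did) and DESeq2 called 1. *Lrp1*, an endocytic receptor that is phosphorylated upon PDGF signalling, had 185, 181 and 232 CPM in the anterior and 231, 616 and 656 CPM in the posterior replicates. Its posterior replicate 1 lay within the anterior range, and its log2 fold change of 1.33 (SE 0.36, adjusted p = 0.0713) was 0.21 with the library-group term. Without posterior replicate 1, where 46.4% of all genes were called, the adjusted p-value of *Lrp1* was 2.49e-05. *Nrp1*, a co-receptor, had 78.1, 88.6 and 86.0 CPM in the anterior and 40.0, 95.4 and 88.7 CPM in the posterior replicates, with posterior replicate 1 alone below the anterior range. Its log2 fold change was -0.17 (adjusted p = 0.721), 0.13 without posterior replicate 1 and -1.08 with the library-group term (adjusted p = 0.000825).

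The 22 signal relay genes, which encode adaptors, kinases and phosphatases that act at the activated receptors, had log2 fold changes between -0.39 and 0.32. With region alone none was called by edgeR, DESeq2 or limma-voom, and 2 had an unadjusted p below 0.05. The extremes were *Fyn*, a SRC-family kinase (log2 fold change -0.39, SE 0.13, adjusted p = 0.133), and *Plcg1*, a phospholipase (0.32, SE 0.13, adjusted p = 0.183). Both were among the 46.4% of genes called without posterior replicate 1 (-0.27 and 0.45, adjusted p = 0.0329 and 0.0016), and *Fyn* was also called with the library-group term (-0.66, adjusted p = 0.0103). Of the 11 attenuators 1 was called (7.46% over all genes), 7 had an unadjusted p below 0.05 (25.2% over all genes), and the regions did not overlap for 5 (28.0% over all genes). The median log2 fold change of the attenuators was -0.081. *Ptprj*, a receptor-type tyrosine phosphatase that acts on PDGF receptors, rose from 13.2, 15.8 and 14.5 CPM to 18.9, 27.6 and 32.2 CPM (log2 fold change 0.85, SE 0.20, edgeR adjusted p = 0.0464). With the library-group term it was 0.38 (adjusted p = 0.227).

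**Figure D5:**
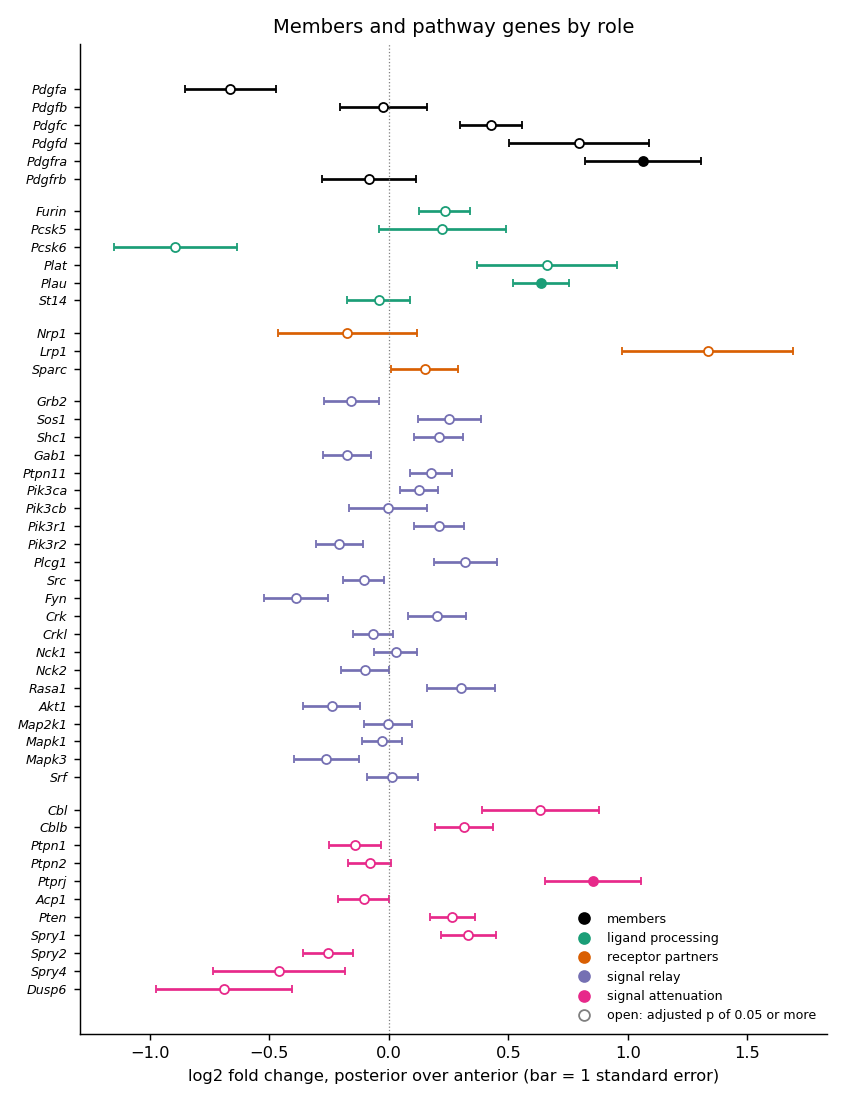
Log2 fold changes, posterior over anterior palate (x axis), with bars of 1 standard error, for the members and the 42 pathway genes (y axis) grouped and coloured by role, filled where the adjusted p-value is below 0.05. *Pdgfra*, *Plau* and *Ptprj* are filled, and the signal relay genes lie between -0.39 and 0.32.

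Of the 13 immediate early genes, which growth factors such as PDGF induce within minutes, 12 were tested and 1 rose, where 4.87% of all genes did. *Jun* went from 85.2 ± 8.90 CPM to 131 ± 16.4 CPM (SD, n = 3; log2 fold change 0.62, edgeR adjusted p = 0.0253), and was 0.47 with the library-group term (adjusted p = 0.0699). The other genes tested were not called with region alone, and *Ier3* was called with that term (0.73, adjusted p = 0.0414). Among 15 relatives of the PDGF family (VEGF ligands and receptors, and the KIT, CSF1 and FLT3 systems), 12 were tested and 2 rose, beside the same 4.87% of all genes. *Vegfc*, the lymphatic growth factor, rose from 14.2 to 15.2 CPM in the anterior to 24.6 to 30.8 CPM in the posterior libraries (log2 fold change 0.93, SE 0.13, adjusted p = 0.00484), and was 0.99 with the library-group term (adjusted p = 0.00626). Its receptor *Flt4* had log2 fold change 0.90 (adjusted p = 0.027) and 0.46 with that term (adjusted p = 0.0619). The relatives had a median log2 fold change of 0.32, which turned to -0.16 with the library-group term, where *Kit*, a receptor tyrosine kinase, was called lower in the posterior palate (-0.64, adjusted p = 0.0166). Leaving out any single library other than posterior replicate 1 ended the calls of *Plau*, *Ptprj* and *Flt4* (highest edgeR adjusted p = 0.081, 0.187 and 0.132). That of *Jun* ended without anterior replicate 1 or 2 or posterior replicate 2 or 3 (highest 0.139), and that of *Vegfc* in none of the 6 fits.

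The genes whose pattern over the 6 libraries was most like that of *Pdgfra*, by the root mean square difference of mean-centred log2 CPM, were *Lrig3*, a membrane protein with leucine-rich repeats (0.044), *Myof*, or myoferlin (0.062), and *Plod2*, a collagen lysyl hydroxylase (0.064), among 5642 genes with at least 0.5 of its SD. *Lrig3* had 48.3, 49.95 and 51.1 CPM in the anterior and 67.0, 112 and 134 CPM in the posterior replicates, with the same order of posterior libraries as *Pdgfra*. Those most like *Pdgfc* were *Ccdc14*, *Tnks1bp1* and *Mtm1*, a phosphoinositide phosphatase (0.033, 0.039 and 0.057, among 12332 genes).

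Markers of the cell types known to make or receive PDGF moved with some members, and in bulk tissue fewer cells of a type and less RNA per cell cannot be told apart. The summed CPM of 10 mesenchymal markers was 13219 to 14219 in the anterior and 17446, 21853 and 26565 in the posterior replicates, and their median log2 fold change was 0.64. The 3 collagens *Col1a1*, *Col1a2* and *Col3a1* made up 76.8% to 90.4% of this sum, and the other 7 markers summed to 2794, 2930 and 3060 CPM in the anterior and 3178.5, 2374 and 2560 CPM in the posterior replicates. Of the posterior libraries this sum was highest in replicate 1, where *Pdgfra* was lowest. Most of the sum came from *Vim* (1237, 1409 and 1336 CPM in the anterior and 1913, 1383 and 1413 CPM in the posterior replicates) and *Prrx1*. *Prrx1* had 1078, 1036 and 1059 CPM in the anterior and 390, 400 and 460.5 CPM in the posterior replicates. *Vim*, *Prrx2*, *Twist1*, *Twist2*, *Osr2* and *Pax9* were each highest of the posterior libraries in replicate 1, and *Prrx1* was lowest there. Of the 10 mesenchymal markers 3 were called, where 7.46% of all genes were. *Prrx1* was lower (log2 fold change -1.34, edgeR adjusted p = 0.000604), and *Twist1* and *Col3a1* were higher (0.74 and 0.88, adjusted p = 0.0129 and 0.0415). With the library-group term *Col3a1* was 0.44 and no longer called (adjusted p = 0.0645), and *Twist2* and *Vim* were called higher. The sum of 10 epithelial markers was 1745 to 1866 CPM in the anterior and 1920, 1334 and 1214 CPM in the posterior replicates, low in posterior replicates 2 and 3 as *Pdgfa* was. Among these markers *Trp63*, a transcription factor of basal epithelium, fell (log2 fold change -0.65, adjusted p = 0.00948), and the median of the list was -0.22. *Krt14* was called higher with the library-group term (0.71, adjusted p = 0.0296). The part of these markers in the *Pdgfra* and *Pdgfa* results was not tested.

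The sum of 10 endothelial markers, beside *Pdgfb*, was 520.5 to 542 CPM in the anterior and 456, 659 and 707 CPM in the posterior replicates. With region alone none of these markers was called by edgeR, with 2 at an unadjusted p below 0.05 (25.2% over all genes) and 1 called by DESeq2. *Cdh5* was called lower in the posterior palate with the library-group term (-0.46, adjusted p = 0.0100), and the median of the list turned from 0.12 to -0.21. Of 10 platelet markers 4 were tested and *Itgb3* rose, while the defining *Gp1bb* had at most 1 count per library. The sum of 10 mural cell markers, of which *Higd1b* had at most 2 counts per library, stood beside *Pdgfrb* at 320.5, 322 and 425 CPM in the anterior and 376, 495 and 609.5 CPM in the posterior replicates. Of the 9 tested 3 were called, beside the same 7.46% of all genes. *Rgs5* and *Kcnj8*, markers of pericytes, fell (log2 fold changes -2.04 and -1.72, adjusted p = 0.0147 and 0.0312) and *Acta2*, smooth muscle actin, rose (1.24, adjusted p = 0.00475). *Abcc9* was also called lower with the library-group term (-1.27, adjusted p = 0.00925), and the median of the list turned from 0.25 to -0.20. *Rgs5* was highest in anterior replicate 3, with 77.4 CPM against 32.3 and 33.1 in the other anterior libraries, as *Pdgfrb* and *Pdgfb* were. The 10 skeletal muscle markers summed to 11.1 to 14.0 CPM in the anterior and 601 to 1064 CPM in the posterior palate, and all 10 rose. The part of these cell types in the values of the members was not tested.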

How the data were processed

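The authors deposited, for each library, raw read counts by Ensembl gene, unstranded and for each strand, in the layout that STAR writes. The study's methods and the submitters' processing notes name HISAT2, mm10, StringTie and DESeq2 1.30.1, and the annotation release is not given in the sources used here. The reverse-stranded counts were used, which exceeded those of the opposite strand at least 18.95-fold. Symbols, positions and lengths came from GENCODE M21, in which 52073 identifiers matched with versions ignored. The test was edgeR 4.0.16 (R 4.3.3), on genes reaching 10 counts in 3 or more libraries, after TMM normalization, with region as the only term, Benjamini-Hochberg adjustment and a threshold of 0.05. The fits were tested on simulated data. The limit of detection of 3 counts was 0.198 to 0.264 CPM, for counting error only. Alternatives were DESeq2 1.42.0, limma-voom (limma 3.58.1), other scalings and filters, unstranded counts, a replicate block, the library-group term (the 2 libraries low in multimapping reads against the other 4), a transcript length correction and leaving out each replicate. No 2 libraries of a region matched within sampling noise (chi-square per gene 3.48 to 61.3).

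The members and gene lists were chosen with earlier results of these data known. Named were all members, per list the genes called (at most 6, or the 2 largest log2 fold changes where none was called) and the 3 genes most like *Pdgfra* and *Pdgfc* in pattern with at least 0.5 of their SD. Marker genes and genes of the opposite strand were chosen after values were seen. Not every marker is reported by name here.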

Additional observations from a re-analysis of the deposited data

Results flagged for a closer look

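Reads on the strand opposite to the members, which entered only the alternative with unstranded counts, were above the limit of 3 counts in every library at 3 members. At *Pdgfa* they numbered 46 to 82 per library, which was 4.79% to 7.72% of its own counts. At *Pdgfra* they numbered 9 to 39 and at *Pdgfrb* 6 to 16, at most 0.561% of the counts of these genes. GENCODE M21 places the antisense gene *6330403L08Rik* over the 5′ part of *Pdgfa*, and its own strand held 18.6, 18.1 and 13.9 CPM in the anterior and 14.3, 12.5 and 13.5 CPM in the posterior replicates (log2 fold change -0.33, SE 0.15, edgeR adjusted p = 0.22).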

How the results depend on the processing

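The same-numbered libraries deviated from their region means with correlations of -0.053, 0.045 and 0.036, so the numbers were not taken as pairs. With the replicate block *Pdgfra* was 1.00 and lost its call (edgeR adjusted p = 0.0578), and the other members kept their side of the threshold. That fit called 829 of 15673 genes and 1 pathway gene. *Plau* and *Jun* also lost their calls in it (edgeR adjusted p = 0.0644 and 0.0579). *Pdgfra* was 1.00 with limma-voom (adjusted p = 0.0540), and its adjusted p-values ran from 1.40e-05 to 0.170 over all alternatives. DESeq2 called *Pdgfa* (-0.67) and *Pdgfc* (0.42), and edgeR run on unfiltered genes called *Pdgfa* (-0.66). *Pdgfb* changed sign with limma-voom (0.0023) and the library-group term (0.13). The anterior ratio of *Pdgfra* to *Pdgfrb* was 1.05 with the longest transcript, and the posterior ratio 2.23 in place of 1.54. Of all genes tested, 1169 of 15673 were called, against 1978 of 15673 with DESeq2 and 2162 of 30259 with no filter. With limma-voom 1074 of 15673 were called, and with at least 10 counts in every library 843 of 14029. The 2 of 42 pathway genes became 4 with DESeq2, 4 with no filter, 1 with limma-voom and 1 with at least 10 counts in every library. The cause of these changes was not tested.

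Leaving out 1 replicate at a time gave log2 fold changes from -0.90 to -0.53 for *Pdgfa*, -0.13 to 0.18 for *Pdgfb* (0.18 without anterior and 0.053 without posterior replicate 3), 0.34 to 0.53 for *Pdgfc*, 0.64 to 1.07 for *Pdgfd*, 0.86 to 1.32 for *Pdgfra* and -0.18 to 0.090 for *Pdgfrb* (0.085 without anterior replicate 3). It gave 498 to 7119 genes called and 0 to 23 pathway genes, the highest without posterior replicate 1. *Nrp1* ran from -0.38 to 0.13, positive without posterior replicate 1. The ratio shifts stayed between 0.93 and 1.21 for the receptors and between 0.95 and 1.40 for the ligands over the alternatives run. The library-group term was not among these alternatives. In posterior replicate 1 the log2 ratio of *Pdgfra* to *Pdgfrb* was 0.38, against an anterior mean of -0.47 and a posterior mean of 0.62. That of *Pdgfc* to *Pdgfa* was -0.63 in posterior replicate 1, against an anterior mean of -1.19 and a posterior mean of -0.073. Of 15 genes named beside the members, 165 values with all libraries held 18 that lost and 13 that gained a call, and of 90 values with 1 library left out 29 lost a call, 6 gained one and 1 reversed. *Pdgfd* had the lowest depth, with 67 counts in its lowest library, and the part of depth in its spread was not tested.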

Other observations

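Anterior replicate 3, highest of the anterior libraries for every member but *Pdgfa*, also stood apart at genes chosen here after their values were seen. *Egr3*, an immediate early transcription factor, had 1.59, 2.47 and 80.8 CPM in anterior replicates 1, 2 and 3 and between 0.823 and 2.38 CPM in the posterior palate. *Egr2*, of the same family, had 0.759, 1.75 and 11.7 CPM in the anterior replicates, and *Vegfd*, a relative of the PDGF ligands, 0.607, 1.89 and 11.3 CPM. *Notch3*, a receptor of mural cells, followed the other split, with 63.9 CPM in posterior replicate 1 and 163 and 199 CPM in replicates 2 and 3.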
